A study of Mus musculus with 9 samples.

Results

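The claudins and their partner proteins of the tight junction were examined in RNA from whole mouse kidneys at embryonic day E15.5. Members were the loci of the deposited table named *Cldn* with a number and those of a list of partner genes, among them *Tjp1*, *Tjp3*, *Ocln*, *Marveld2*, *Marveld3*, *F11r*, *Jam2*, *Jam3*, *Cgn* and *Cgnl1*, which gave 34 of 24138 loci, 23 of them claudins. The rule itself reads gene names only, and it was set with earlier results of these data known. The 9 libraries were compared, 3 of each genotype, each from a kidney on the C57Bl6/J background, with male and female embryos mixed. The mutant (MUT) kidneys were Foxd1GC/+;Ntn1fl/fl, with a GFP-Cre inserted in 1 *Foxd1* allele and both *Ntn1* alleles floxed. The heterozygous (HET) kidneys were Foxd1GC/+;Ntn1fl/+, and the wild-type (WT) kidneys were Ntn1fl/fl without Cre. *Foxd1* drives Cre in stromal progenitors, so recombination was directed at stroma, while most claudins are made by epithelia and endothelium. HET and MUT share the loss of 1 *Foxd1* allele, and the study set MUT against HET to account for it. MUT and WT carry the same floxed *Ntn1* alleles, so in MUT against WT recombination by Cre and the loss of 1 *Foxd1* allele change together and cannot be told apart. HET against WT differs in these and in 1 floxed *Ntn1* allele.

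Tight junctions seal the space between neighbouring epithelial cells. Claudins span the membrane and set which ions pass. Occludin and the MARVEL proteins sit beside them, the junctional adhesion molecules (JAMs) hold the cells together, and the zonula occludens and cingulin scaffolds tie the strands to actin. Each segment of the nephron has its own set of claudins: leaky pores in the proximal tubule, cation channels in the thick ascending limb, and barrier claudins in the collecting duct.

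Values are FPKM, fragments scaled to transcript length and library size, and so can be set side by side between genes of different length. Listed values follow the order of libraries 1, 2 and 3 of a genotype. They are those of the whole kidney, in which fewer cells of a type and less RNA per cell cannot be told apart. *Ntn1* was 26.1, 28.9 and 17.9 FPKM in WT, 12.3, 12.02 and 16.5 in HET and 10.8, 16.5 and 11.04 in MUT. Every HET and MUT library lay below every WT library, and HET and MUT overlapped. *Foxd1* was 33.7, 33.4 and 25.8 FPKM in WT, 21.7, 20.2 and 21.5 in HET and 24.8, 22.5 and 24.3 in MUT, again without overlap with WT. HET-2 stood apart. In HET-2 the 8 hepatocyte markers summed to 759 FPKM, against 37.7, 40.8 and 52.5 in WT, 40.4 and 36.8 in the other HET kidneys and 28.7, 53.9 and 34.9 in MUT. *Alb*, the defining hepatocyte gene, was 244 FPKM there and at most 4.77 elsewhere, and *Afp*, the most abundant of the list over the libraries, was 217 there and at most 44.3 elsewhere. The erythroid markers summed to 2399 FPKM in HET-2 and to between 1372 and 1728 in the others. Where a gene named below had an unadjusted p under 0.05 in MUT against HET or HET against WT with the 9 libraries in place, its value without HET-2 is also given. The adrenal marker *Cyp11a1* was between 0.288 and 0.491 FPKM, *Krt5* of basal urothelium did not exceed 0.209, and *Upk3a*, a uroplakin of urothelium, lay between 8.98 and 20.3. The FPKM of a library added up to 453753 at the least (WT-1) and 545598 at the most (WT-2), and Pearson's r between libraries lay between 0.937 and 0.984 over 9978 loci. The kidneys came from 3 crosses, and which of them shared a litter is not stated in the labels, so p-values measure the spread between these kidneys.

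Of the 34 members, 22 had a mean of at least 5 FPKM over the 9 libraries, 13 of them claudins. Another 2 claudins (*Cldn16* and *Cldn15*) lay between 1 and 5 FPKM and 8 lay below 1. A handful of genes carried most of the claudin RNA: *Cldn6*, *Cldn5* and *Cldn7* made up 48.6% of the summed claudin FPKM, and with *Cldn8* and *Cldn11* the share was 66.6%. The within-genotype coefficient of variation had a median of 13.4% over the 22 abundant members and 12% over the 9978 loci of at least 5 FPKM. Members were not equally steady. *F11r* varied by 4.19% and *Marveld2* by 6.01% within a genotype, whereas *Cldn10* varied by 31.3%, *Cldn2* by 27.5%, *Cldn19* by 26.6% and *Cldn3* by 26.4%. At the low end, 6 members were listed at 0 in at least 1 library.

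**Figure D1:**
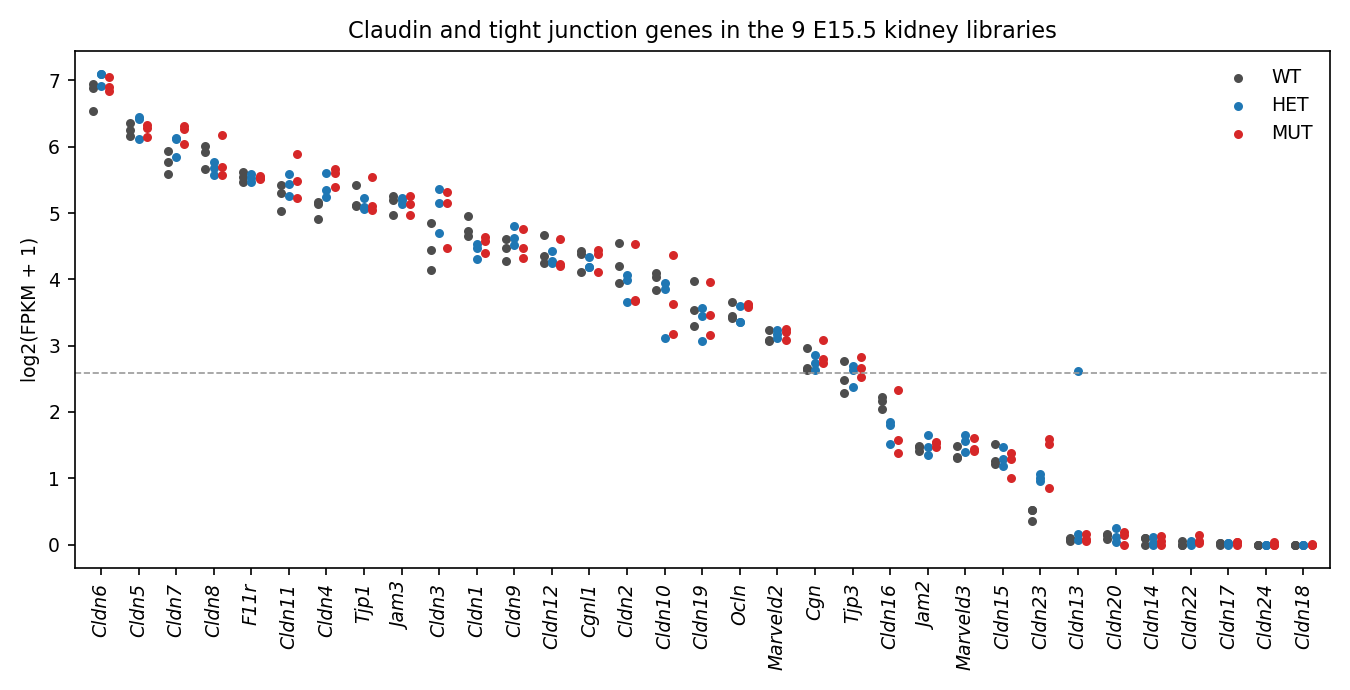
Level of 33 of the 34 members in each library, as log2(FPKM + 1), with genes ordered by their mean over the 9 libraries. Each point is 1 library, grey for WT, blue for HET and red for MUT, and the dashed line marks 5 FPKM. *Cldn6* is highest, the 21 genes on the left lie around or above the line, and the single raised point of *Cldn13* is HET-2.

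No member passed the threshold in any of the 3 comparisons. Each comparison was made on log2(FPKM + 1) with limma over every locus whose mean reached 5 FPKM in 1 of the genotypes, and p-values were adjusted over all of them by the Benjamini-Hochberg method. In MUT against HET, 0 of 10081 loci (0.0%) and 0 of 22 members had an adjusted p under 0.05, and in MUT against WT (0 of 10096, 0.0%) and HET against WT (0 of 10105, 0.0%) the counts were the same, with 22 and 21 members tested. The lowest adjusted p over all loci was 0.738, 0.561 and 0.978, and over the members 0.738, 0.9998 and 0.998. *Tjp3* passed the minimum through its MUT mean alone, and was not tested in HET against WT. What follows about genotypes therefore describes sizes and unadjusted p-values, none of which survive adjustment.

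In MUT against HET, the comparison the study was built on, 0 of 22 members had an unadjusted p under 0.05, where 6.31% of all loci did (3.68% higher and 2.63% lower in MUT). No member had MUT and HET libraries that did not overlap, against 9.69% of loci (5.19% higher, 4.5% lower). The log2 fold change was above 0 for 17 of 22 members and for 45.9% of loci, with a median of 0.09 over the members and -0.02 over all loci. Without *Tjp3* it was 16 of 21, with a median of 0.09. Members ranged from -0.13 (*Cldn9*) to 0.18 (*Ocln*). The smallest unadjusted p was that of *Ocln*, 0.127 (log2 fold change 0.18, SE 0.11, adjusted p = 0.738). The 95% intervals of *Cldn4* (-0.13 to 0.44), *Cldn7* (-0.11 to 0.46) and *Cldn8* (-0.20 to 0.48) all span 0. Without HET-2 the count of members under 0.05 was again 0, beside 2.92% of loci.

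In MUT against WT, 2 of 22 members, *Cldn4* and *Cldn7*, had an unadjusted p under 0.05, both higher in MUT, where 0.307% of loci were higher, 0.337% lower and 0.644% either at that p. The same 2 genes were higher without overlap of the libraries (1.32% of loci), and *Cldn1* was lower without overlap (1.34% of loci, 2.65% in either direction). In HET against WT, *Cldn3* and *Cldn4* were higher (0.544% of loci) and *Cldn1* was lower (0.524% of loci, 1.07% in either direction). *Cldn4* was again higher without overlap (2.15% of loci) and *Cldn1* lower without overlap (1.06% of loci, 3.21% in either direction). The log2 fold change was above 0 for 13 of 22 members in MUT against WT (48.7% of loci) and for 10 of 21 in HET against WT (52.4% of loci), with medians of 0.03 and -0.00 over the members and -0.00 and 0.01 over all loci. Without *Tjp3* the count in MUT against WT was 12 of 21 and the median 0.01. Both comparisons use the same 3 WT libraries, so a WT library that is high or low moves both.

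**Figure D2:**
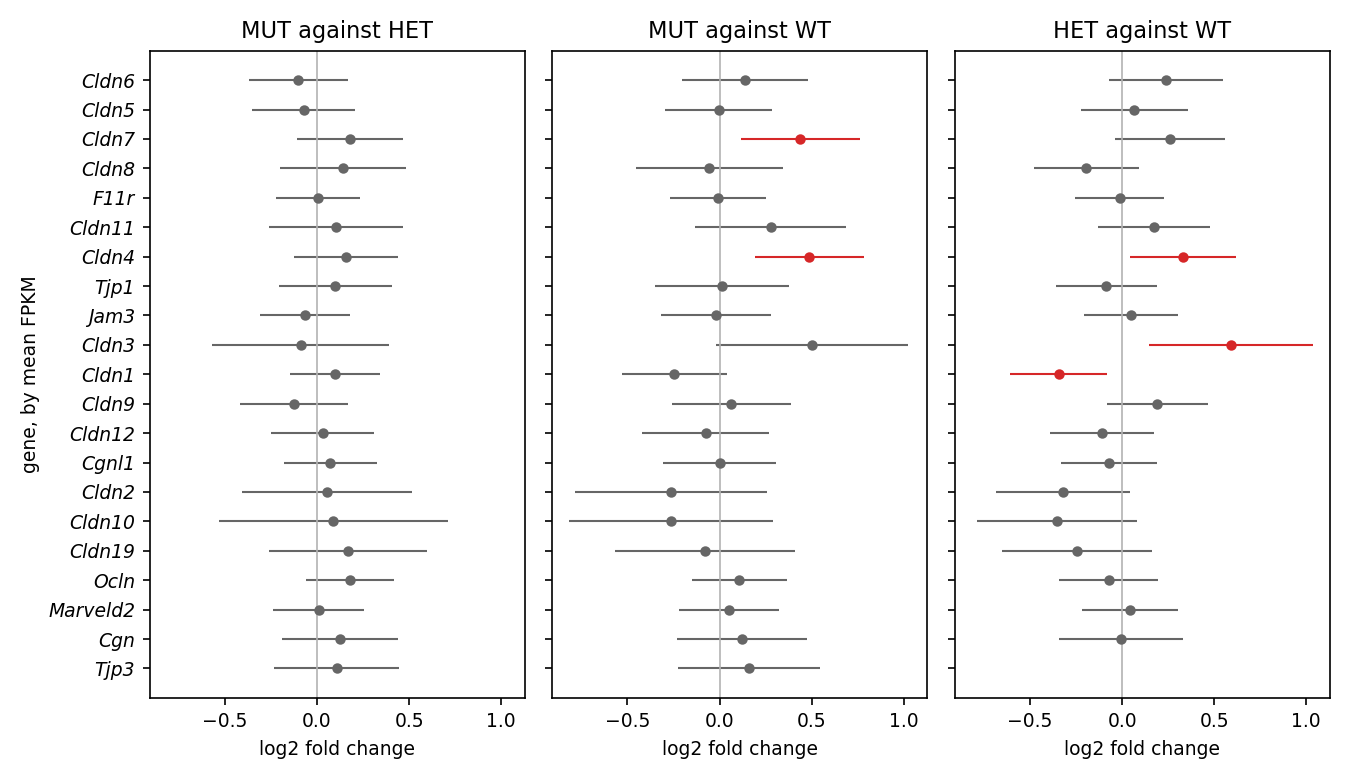
Log2 fold change of 21 of the tested members in the 3 comparisons, from limma on log2(FPKM + 1), with the 95% interval as a bar and genes ordered by mean FPKM. Red marks an unadjusted p under 0.05: *Cldn7* and *Cldn4* in MUT against WT, and *Cldn4*, *Cldn3* and *Cldn1* in HET against WT. No point is red in MUT against HET, and no member had an adjusted p under 0.05.

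The 4 claudins listed for the ureteric stalk and collecting duct, as barrier claudins, were *Cldn3*, *Cldn4*, *Cldn7* and *Cldn8*. Together they summed to 168, 173 and 157 FPKM in WT, 193, 203 and 172 in HET and 211, 198 and 212 in MUT. *Cldn4* (mm10 chr5:134945124-134946934, 1 exon, minus strand) was 34.2, 34.8 and 29.0 FPKM in WT, 39.8, 47.5 and 36.9 in HET and 49.6, 41.1 and 47.8 in MUT. All 6 libraries that carry Cre lay above the highest WT library, and HET and MUT overlapped. The means were 32.7±3.20, 41.4±5.49 and 46.2±4.47 FPKM (mean±s.d.). The log2 fold change was 0.49 in MUT against WT (SE 0.13, unadjusted p = 0.00443, adjusted p = 0.9998) and 0.33 in HET against WT (SE 0.13, unadjusted p = 0.0290, adjusted p = 0.998). An exact permutation test of 3 libraries against 3 gave p = 0.1 for each, the smallest it can give.

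*Cldn7* (chr11:69964779-69967886) was 53.7, 60.4 and 47.2 FPKM in WT, 68.2, 68.9 and 56.3 in HET and 75.9, 64.6 and 78.7 in MUT. MUT lay wholly above WT, and HET-3 fell among the WT libraries. Its log2 fold change was 0.44 in MUT against WT (SE 0.14, unadjusted p = 0.0128) and 0.26 in HET against WT (SE 0.14, unadjusted p = 0.0824). *Cldn3* (chr5:134986214-135001350) was more scattered, at 20.7, 27.7 and 16.6 FPKM in WT, 34.4, 39.9 and 24.9 in HET and 34.5, 21.2 and 38.7 in MUT. MUT-2 lay within the WT range and HET-3 below WT-2. The log2 fold change was 0.59 in HET against WT (SE 0.20, unadjusted p = 0.0138) and 0.50 in MUT against WT (SE 0.23, unadjusted p = 0.0568). The *Cldn3* locus of the table is 15.1 kb long and that of the annotated gene 1.26 kb, so the assembled model runs past the annotated gene. *Cldn8*, the fourth of the group, was 59.4, 49.6 and 63.7 FPKM in WT, 50.1, 46.5 and 53.5 in HET and 50.6, 71.2 and 46.4 in MUT. The genotypes overlapped and the log2 fold changes against WT were -0.05 (MUT, SE 0.18) and -0.19 (HET, SE 0.13).

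**Figure D3:**
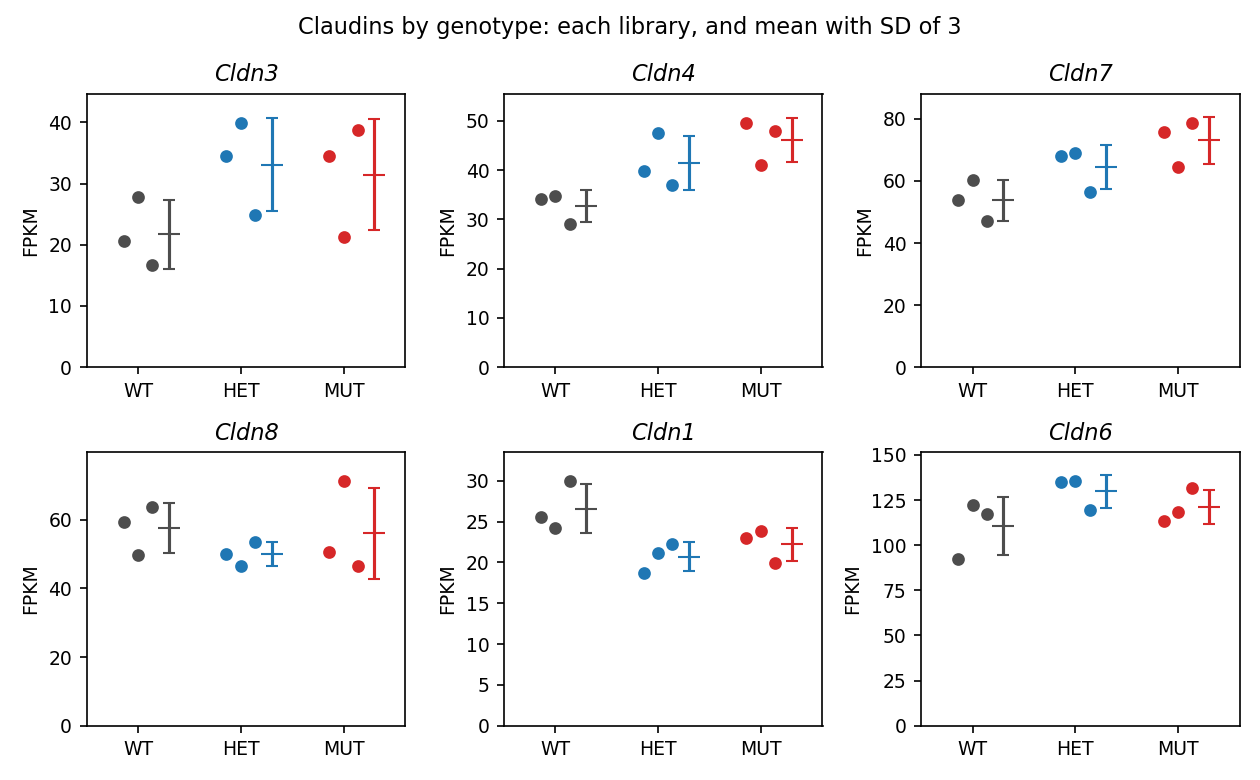
FPKM of 6 claudins in WT, HET and MUT kidneys. Points are libraries 1 to 3 from left to right, and the bar beside them is the mean with the standard deviation of 3. *Cldn4* is above the WT range in all HET and MUT libraries, *Cldn7* in all MUT libraries, *Cldn1* is below the WT range in all HET and MUT libraries, and *Cldn8* and *Cldn6* overlap between genotypes.

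Single libraries decided some of these values. Without HET-2, *Cldn4* in HET against WT had a log2 fold change of 0.23 (unadjusted p = 0.158), while *Cldn3* had 0.45 (unadjusted p = 0.0469, and not under 0.05 with the minimum also lowered to 1 FPKM). Without HET-1 *Cldn4* was 0.35 (unadjusted p = 0.0566), and without WT-1 *Cldn3* was 0.57 (unadjusted p = 0.0639). Without WT-3, the lowest WT library for *Cldn3*, *Cldn4* and *Cldn7*, *Cldn4* in HET against WT was 0.25 (unadjusted p = 0.0963) and *Cldn3* 0.42 (unadjusted p = 0.0642), which left *Cldn1* as the 1 member under 0.05 there, beside 2.54% of loci. *Cldn4* in MUT against WT ran from 0.41 to 0.57 with each library left out, at unadjusted p between 0.00397 and 0.0198. *Cldn7* in MUT against WT ran from 0.35 to 0.52, at p between 0.00992 and 0.0503, the last without MUT-3. *Cldn3* in MUT against WT was 0.76 (unadjusted p = 0.00489) without MUT-2 and 0.34 (unadjusted p = 0.240) without WT-3. Without HET-3, *Cldn7* in HET against WT was 0.35 (unadjusted p = 0.0358).

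Markers of the same epithelium were read beside them. The 11 ureteric stalk and collecting duct markers summed to 318, 361 and 357 FPKM in WT, 406, 381 and 348 in HET and 359, 375 and 414 in MUT. *Calb1*, the calcium-binding protein that is most abundant among them, was 67.9, 88.1 and 88.0 FPKM in WT, 89.9, 77.1 and 97.6 in HET and 88.1, 84.3 and 106 in MUT. Of the 11, 9 had a log2 fold change above 0 in MUT against WT and 7 in HET against WT, with medians of 0.14 and 0.02, where 48.7% and 52.4% of all loci were above 0. In each comparison 1 of the 11 had an unadjusted p under 0.05, beside 0.644% and 1.07% of loci. It was *Krt19*, a keratin of ductal epithelium, at 18.0, 21.7 and 21.5 FPKM in WT, 32.1, 33.8 and 24.4 in HET and 25.1, 30.6 and 33.1 in MUT. It did not overlap with WT in either genotype, and its log2 fold change was 0.51 (SE 0.14, unadjusted p = 0.00423) in MUT and 0.53 (SE 0.14, unadjusted p = 0.00339) in HET against WT, before adjustment. Without HET-2, its highest library, the latter was 0.44 (SE 0.16, unadjusted p = 0.0172). None of the 11 duct markers was at 0. The part of duct content in the *Cldn3*, *Cldn4* and *Cldn7* values was not tested.

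Base composition also moved with these claudins. Transcript GC content was 62.8% for *Cldn3*, 57.0% for *Cldn7* and 56.8% for *Cldn4*, and 40.6% for both *Cldn8* and *Cldn1*. Per 10 percentage points of GC, log2 values of a library leaned by -0.20 in WT-3 and by 0.13 in HET-2, the 2 extremes of the 9. Across the tested members, Pearson's r between GC content and log2 fold change was 0.60 in MUT against WT (22 genes), 0.70 in HET against WT (21 genes) and -0.30 in MUT against HET (22 genes), where the genes share the same libraries and are not independent. After each library was corrected for GC, *Cldn4* and *Cldn7* stood at 0.45 (SE 0.10, unadjusted p = 0.00207) and 0.40 (SE 0.12, unadjusted p = 0.00862) in MUT against WT. In HET against WT, corrected *Cldn3* stood at 0.60 (SE 0.17, unadjusted p = 0.00695), *Cldn4* at 0.27 (SE 0.09, unadjusted p = 0.0139) and *Cldn1* at -0.24 (SE 0.09, unadjusted p = 0.0240).

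*Cldn3* and *Cldn4* lie 39.3 kb apart on chromosome 5 and varied together over the 9 libraries (r = 0.85 as a description, since the libraries differ in genotype and depth). Because they and *Cldn7* had the highest log2 fold changes against WT among the members tested, in MUT as in HET, their promoter sequences are shown. RefSeq windows from 250 bases before to 50 after the start site (GRCm38.p6, the assembly of mm10) were found for 26 of the 34 members, 37 windows in all. They were searched on both strands for CACCTG, the E-box bound by the Snail and ZEB repressors, AACCNGTT, a grainyhead-like site, GGGCGG, the GC box, and TATAAA. The 250 bases before the start of *Cldn3* (chr5:134985964-134986213, plus strand) and *Cldn4* (chr5:134946935-134947184, minus strand), 5′ to 3′ with the E-box and the GC box in capitals, read:

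*Cldn3*: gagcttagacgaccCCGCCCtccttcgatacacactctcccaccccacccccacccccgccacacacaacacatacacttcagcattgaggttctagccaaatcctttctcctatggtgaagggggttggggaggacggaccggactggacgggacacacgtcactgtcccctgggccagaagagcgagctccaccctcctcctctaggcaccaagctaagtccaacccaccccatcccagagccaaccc

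*Cldn4*: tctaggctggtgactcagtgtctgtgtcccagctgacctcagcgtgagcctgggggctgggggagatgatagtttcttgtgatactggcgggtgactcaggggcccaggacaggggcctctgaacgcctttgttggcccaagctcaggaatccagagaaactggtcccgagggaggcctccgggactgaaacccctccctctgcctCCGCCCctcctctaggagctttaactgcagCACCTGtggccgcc

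Each holds 1 GC box, read here as its reverse complement, and *Cldn4* holds an E-box 14 bases before its start. In all, 5 E-boxes lay in the windows of the 3 genes, 1 after the start of *Cldn3*, 1 on either side of the start of *Cldn4* and 2 before the second of the 2 RefSeq starts of *Cldn7*. That second start (chr11:69965421) and both E-boxes before it lie inside the *Cldn7* locus, which begins at 69964779. The window of the first *Cldn7* start held 0 E-boxes. Stretches of 30 bases around the 5 E-boxes, with the E-box in capitals and its first base counted from the start site, read:

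*Cldn3* at 32 (chr5:134986233-134986262, plus strand): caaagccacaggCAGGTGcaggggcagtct

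*Cldn4* at -14 (chr5:134946931-134946960, minus strand): ctttaactgcagCACCTGtggccgcccttt

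*Cldn4* at 12 (chr5:134946906-134946935, minus strand): cctttcttgttgCAGGTGcaggcaggaaag

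*Cldn7* at -97 (chr11:69965312-69965341, plus strand): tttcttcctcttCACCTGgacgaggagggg

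*Cldn7* at -57 (chr11:69965352-69965381, plus strand): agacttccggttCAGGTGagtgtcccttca

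CACCTG was in 12 of 37 member windows (32.4%), belonging to 9 genes, and in 20.3% of all 32544 RefSeq windows. The other genes were *Cldn6*, *Cldn14*, *F11r*, *Ocln*, *Marveld2* and *Tjp3*, none of which had an unadjusted p under 0.05 with the 9 libraries in place, where it was tested. GGGCGG was in 21 of 37 (56.8%, 35.9% of all windows), AACCNGTT in 2 (5.41%, 2.09% of all), those of *Cgn* and *Cldn5*, and TATAAA in 3 (8.11%, 13.6% of all), from *Cldn2* and *Marveld2*. A match of letters does not show that a factor binds.

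*Cldn23*, a claudin of barrier epithelia, lay under the minimum and was picked out after its values were seen. It was 0.433, 0.430 and 0.285 FPKM in WT, 0.943, 1.00 and 1.09 in HET and 1.85, 0.813 and 2.01 in MUT. The HET and MUT means were 2.65 and 4.07 times the WT mean, and HET and MUT overlapped. These values are a description. At a minimum of 1 FPKM the gene would enter a comparison with WT through its HET or MUT mean alone, so its p against WT is not given. In MUT against HET both means reached 1 FPKM. There its log2 fold change in limma was 0.31 (SE 0.19, unadjusted p = 0.133, adjusted p = 0.775).

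*Cldn1*, which in the kidney marks the parietal epithelium of Bowman's capsule, was 25.6, 24.3 and 29.9 FPKM in WT, 18.7, 21.2 and 22.2 in HET and 22.9, 23.8 and 20.0 in MUT. Each HET and MUT library lay below the lowest WT library. The log2 fold change was -0.34 in HET against WT (SE 0.12, unadjusted p = 0.0149, adjusted p = 0.998) and -0.25 in MUT against WT (SE 0.13, unadjusted p = 0.0825). Without HET-2 the first was -0.36 (unadjusted p = 0.0349), without WT-3 -0.26 (unadjusted p = 0.0483) and without HET-1 -0.28 (unadjusted p = 0.0950). The 7 podocyte markers, of the neighbouring glomerular epithelium, summed to 155, 90.8 and 107 FPKM in WT, 93.1, 110 and 73.8 in HET and 126, 146 and 73.4 in MUT, and the relation of *Cldn1* to them over the 9 libraries did not pass the threshold (r = 0.42, adjusted p = 0.518 by an exact permutation of pairings). Without MUT-3 and WT-1, the libraries farthest from the marker median, r was 0.18.

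*Cldn2*, *Cldn10* and *Cldn19* varied over the libraries with the markers of their segments, for *Cldn19* about as closely with those of podocytes. *Cldn2*, the cation and water pore of the proximal tubule on chromosome X, was 14.3, 17.3 and 22.4 FPKM in WT, 15.8, 14.9 and 11.6 in HET and 11.8, 22.1 and 11.8 in MUT. *Cldn10*, whose isoforms form pores in the proximal tubule and thick limb, was 13.3, 15.4 and 16.0 FPKM in WT, 14.5, 13.4 and 7.63 in HET and 8.04, 19.7 and 11.4 in MUT. Both were lowest in HET-3, and in MUT both were high in MUT-2 and low in MUT-1 and MUT-3. Against the mean log2 level of 10 proximal tubule markers, *Cldn2* had r = 0.91 (p = 0.00144, adjusted p = 0.0130 over 18 relations, exact permutation of pairings) and rho = 0.87 (p = 0.00451, adjusted p = 0.0406, exact permutation). *Cldn10* had r = 0.85 (p = 0.00476, adjusted p = 0.0286) and rho = 0.83 (p = 0.00827, adjusted p = 0.0496) by the same exact permutation test. Leaving out HET-3 and MUT-3, the libraries farthest from the median of the markers, gave r = 0.92 and 0.87. Within genotypes, on deviations from the genotype means, r was 0.90 and 0.83. With the loop and distal markers *Cldn10* had r = 0.61 (adjusted p = 0.275, exact permutation).

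*Cldn19*, the thick limb partner of claudin 16 in magnesium and calcium transport, was 14.7, 8.88 and 10.6 FPKM in WT, 9.89, 10.8 and 7.37 in HET and 10.1, 14.5 and 7.93 in MUT. It had r = 0.98 with 10 loop and distal tubule markers (p = 0.000127, adjusted p = 0.00228) and rho = 0.97 (p = 0.000165, adjusted p = 0.00298) by exact permutation of pairings. Without HET-3 and WT-1 r was 0.95, and within genotypes 0.98. As a description over the same 9 libraries, r was 0.95 with the podocyte markers and 0.73 with the proximal tubule markers, so the relation was not particular to the loop and distal list. For *Cldn2* and *Cldn10* r with the podocyte markers was 0.41 and 0.39, and with the ureteric tip markers -0.82 and -0.61. *Cldn16* was low, at 3.46, 3.68 and 3.11 FPKM in WT, 2.48, 2.59 and 1.87 in HET and 1.62, 4.04 and 2.00 in MUT, and its relation to the same markers did not pass after adjustment (r = 0.67, adjusted p = 0.224, exact permutation). As a description, its r with the proximal tubule markers was 0.80, above that with its own list. Of the 6 loop and distal markers tested, 1 had a log2 fold change above 0 in HET against WT (median -0.12), where 52.4% of loci did. In limma, 1 of the 6 had an unadjusted p under 0.05, lower in HET, beside 1.07% of loci. With the minimum at 1 FPKM, *Cldn16* in HET against WT stood at -0.42 (SE 0.13, unadjusted p = 0.00947, adjusted p = 0.999), and at -0.48 without HET-2 (SE 0.15, unadjusted p = 0.00983). The part of loop and distal content in the *Cldn16* value was not tested. *Cldn14*, the inhibitor of that channel, was 0.0766, 0.0685 and 0 FPKM in WT, 0, 0.0796 and 0.0179 in HET and 0, 0.0339 and 0.0894 in MUT. *Cldn17*, a proximal anion pore, was 0.0171, 0 and 0.0176 FPKM in WT, 0.0186, 0 and 0.0163 in HET and 0.0269, 0 and 0.0280 in MUT. Both were near the floor of the table in every library, and each was listed at 0 in 3 of them.

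**Figure D4:**
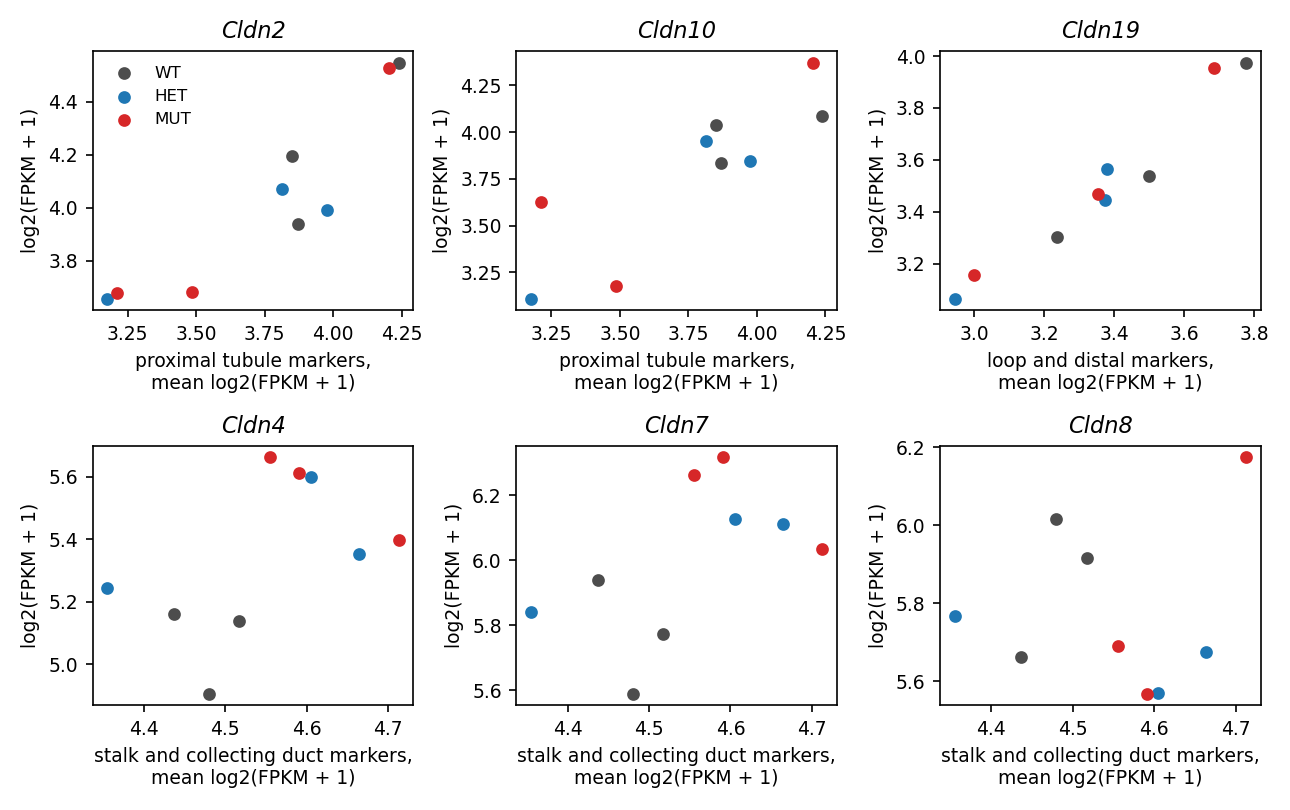
Level of 6 claudins, as log2(FPKM + 1), against the mean log2(FPKM + 1) of their segment's markers, with 1 point per library in grey for WT, blue for HET and red for MUT. *Cldn2*, *Cldn10* and *Cldn19* rise with their markers (r = 0.91, 0.85 and 0.98), while *Cldn4*, *Cldn7* and *Cldn8* do not pass the adjusted threshold.

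The proximal markers themselves summed to 206, 215 and 272 FPKM in WT, 205, 225 and 124 in HET and 158, 269 and 139 in MUT, a spread in which MUT-2 stood with WT-3. None of *Cldn2*, *Cldn10* and *Cldn19*, the proximal and loop claudins tested at the minimum of 5 FPKM, had an unadjusted p under 0.05 with the 9 libraries in place. In MUT against WT, *Cldn2* was -0.26 (SE 0.23) and *Cldn10* -0.26 (SE 0.25) on the log2 scale. Without MUT-2 they were -0.55 (unadjusted p = 0.0145) and -0.58 (unadjusted p = 0.00706), which with *Cldn3* brought the members under 0.05 from 2 to 5, while the share of all loci went from 0.644% to 1.25%. In HET against WT, *Cldn2* was -0.32 (SE 0.16, unadjusted p = 0.0790) and *Cldn10* -0.35 (SE 0.20, unadjusted p = 0.102), and without HET-3 the second was -0.09. Without HET-1 they were -0.40 (unadjusted p = 0.0460) and -0.51 (unadjusted p = 0.0203), without WT-1 *Cldn2* was -0.46 (unadjusted p = 0.0256), and without HET-2 *Cldn10* was -0.46 (unadjusted p = 0.0471). *Cldn19* in HET against WT was -0.25 (SE 0.18, unadjusted p = 0.207), -0.40 without WT-2 (unadjusted p = 0.0495) and -0.062 without WT-1. The 4 collecting duct claudins did not pass the adjusted threshold with the 11 duct markers, where r was 0.30 for *Cldn3*, 0.50 for *Cldn4*, 0.54 for *Cldn7* and 0.14 for *Cldn8* (adjusted p = 0.628, 0.443, 0.407 and 0.815, exact permutation), over markers that spanned 0.36 on the log2 scale between libraries, against 1.06 for the proximal and 0.83 for the loop list. Without HET-3 and MUT-2, the libraries farthest from the marker median, r was 0.67, 0.63, 0.63 and -0.51. Within genotypes it was 0.05, 0.11, 0.21 and 0.24. Whether the claudins differ from one another in this was not tested.

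The same 4 claudins had r of larger size with the pan-epithelial list, given over the same 9 libraries as a description. With 8 pan-epithelial markers r was 0.95 for *Cldn3*, 0.77 for *Cldn4*, 0.85 for *Cldn7* and -0.85 for *Cldn8*, and with the ureteric tip markers 0.78, 0.51, 0.62 and -0.90. With the nephron progenitor markers r was 0.76, 0.46, 0.63 and -0.79. With the adrenal and gonad markers, of which 1 of 8 reached 5 FPKM, it was 0.78, 0.50, 0.43 and -0.86. The relation was therefore not particular to the pan-epithelial list. *Cldn8* ran opposite to the other 3 on each of these lists. The pan-epithelial markers summed to 322, 379.9 and 357 FPKM in WT, 414, 402 and 354 in HET and 376, 344 and 417 in MUT. Of the 8, 6 had a log2 fold change above 0 in MUT against WT and 7 in HET against WT (medians 0.08 and 0.11), where 48.7% and 52.4% of loci did. *Epcam*, an adhesion protein of epithelia and the most abundant of the list, was 89.7, 107 and 97.8 FPKM in WT, 113, 109 and 94.7 in HET and 95.2, 92.3 and 107 in MUT, and the genotypes overlapped. The part of epithelial content in the values of the 4 claudins was not tested.

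*Cldn6* and *Cldn9*, claudins of embryonic epithelium, were set apart from the segments above. *Cldn6* was the most abundant claudin, at 92.3, 122 and 117 FPKM in WT, 135, 135 and 119 in HET and 113, 119 and 132 in MUT. *Cldn9* was 18.5, 23.5 and 21.1 FPKM in WT, 26.9, 23.6 and 21.8 in HET and 19.0, 21.2 and 26.2 in MUT. The genotypes overlapped for both. The genes lie 0.138 kb apart on chromosome 17 on opposite strands, and although *Cldn6* was several times higher, their levels moved together over the libraries (r = 0.87, as a description). Neither relation to the early nephron markers passed the threshold (r = -0.37 and -0.26, adjusted p = 0.606 and 0.628, exact permutation). Without WT-1 and WT-3, the libraries farthest from the marker median, r was 0.055 and -0.12. As a description over all 9 libraries, r was 0.72 for *Cldn6* and 0.86 for *Cldn9* with the nephron progenitor markers, and -0.72 and -0.76 with the endothelial markers.

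*Cldn5*, the claudin of endothelium, was the second highest, at 70.6, 81.2 and 75.0 FPKM in WT, 84.5, 85.9 and 68.2 in HET and 70.1, 76.8 and 78.9 in MUT. Vessels being the subject of the study, its interval in MUT against HET is given: -0.07 on the log2 scale, from -0.35 to 0.21 (adjusted p = 0.889). The 8 endothelial markers summed to 299, 291 and 268 FPKM in WT, 270, 284 and 255 in HET and 299, 270 and 273 in MUT, and the relation of *Cldn5* to them did not pass the threshold (r = -0.42, adjusted p = 0.518, exact permutation). Without MUT-1 and WT-1, the libraries farthest from the marker median, r was 0.38. *Cldn11*, known from myelin and Sertoli cells, was 38.5, 31.6 and 42.0 FPKM in WT, 42.2, 47.0 and 37.4 in HET and 43.5, 58.4 and 36.4 in MUT. It overlapped between genotypes and was highest in MUT-2. In MUT against WT it was 0.28 on the log2 scale (unadjusted p = 0.161), 0.43 without MUT-3 (unadjusted p = 0.0373) and 0.096 without MUT-2 (unadjusted p = 0.58). *Cldn12*, broadly expressed, was 19.5, 18.0 and 24.4 FPKM in WT, 18.3, 17.9 and 20.6 in HET and 17.7, 23.4 and 17.4 in MUT, and *Cldn15* lay between 1.01 and 1.86 FPKM.

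The remaining claudins were close to the floor of the table. *Cldn13*, known from blood-forming tissue of the mouse, was 5.17 FPKM in HET-2 and at most 0.120 in the other 8 libraries, in the library where hepatocyte and erythroid markers were also highest. The other HET libraries were at 0.120 and 0.0522 FPKM, beside 0.0366, 0.0637 and 0.0748 in WT and 0.114, 0.0340 and 0.0590 in MUT. The part of other tissue in HET-2 in the *Cldn13* value was not tested. *Cldn20* did not exceed 0.194 FPKM, at a locus of 231 kb for an annotated gene of 0.66 kb. *Cldn22* did not exceed 0.103, and *Cldn24* and *Cldn18* were each listed at 0 in 8 of 9 libraries.

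The abundant transmembrane partners had a coefficient of variation within genotypes (pooled SD over the mean) of 8.31% for *Ocln*, 6.01% for *Marveld2*, 4.19% for *F11r* and 8.68% for *Jam3*. *Ocln*, occludin itself, was 9.85, 9.69 and 11.6 FPKM in WT, 9.20, 9.22 and 11.05 in HET and 11, 11.3 and 11.4 in MUT. *Marveld2*, tricellulin, which seals the points where 3 cells meet, was 7.44, 7.46 and 8.39 FPKM in WT, 7.67, 8.42 and 7.996 in HET and 8.49, 7.53 and 8.23 in MUT. *Marveld3* lay between 1.48 and 2.15 FPKM. *F11r*, JAM-A, was the steadiest member, at 43.1, 45.4 and 48.1 FPKM in WT, 43.1, 47.0 and 45.2 in HET and 44.6, 44.9 and 46.3 in MUT. *Jam3*, JAM-C, was 30.3, 37.2 and 35.7 FPKM in WT, 35.7, 34.1 and 36.5 in HET and 30.3, 34.1 and 37.3 in MUT, and *Jam2* lay between 1.56 and 2.15. In MUT against HET the log2 interval ran from -0.22 to 0.23 for *F11r* and from -0.06 to 0.42 for *Ocln*. Without HET-3, the highest HET library, *Ocln* was 0.26 (unadjusted p = 0.0322), the 1 member under 0.05 there, beside 11.2% of all loci.

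Among the scaffolds, *Tjp1*, ZO-1, was 41.9, 33.4 and 33.9 FPKM in WT, 32.5, 33.2 and 36.6 in HET and 45.5, 32.1 and 33.4 in MUT. WT-1 and MUT-1 were the high libraries for *Tjp1*. *Tjp3*, ZO-3, was 5.82, 4.59 and 3.88 FPKM in WT, 5.48, 5.17 and 4.20 in HET and 6.14, 5.32 and 4.76 in MUT. *Cgn*, cingulin, was 6.77, 5.34 and 5.21 FPKM in WT, 5.68, 6.27 and 5.24 in HET and 7.50, 5.96 and 5.66 in MUT, and its paralogue *Cgnl1* was 20.6, 16.2 and 19.9 in WT, 17.2, 17.2 and 19.3 in HET and 20.7, 19.8 and 16.3 in MUT. MUT-1 was the highest library for each of these 4 scaffolds. Their log2 fold changes in MUT against HET lay between 0.07 (*Cgnl1*) and 0.13 (*Cgn*), and *Tjp1*, *Cgn* and *Cgnl1* had unadjusted p-values above 0.05. *Tjp3*, in the test through its MUT mean alone, is given as a value. Without MUT-1 they were -0.06 for *Tjp1*, 0.03 for *Tjp3*, 0.02 for *Cgn* and 0.0071 for *Cgnl1*. Of the partner genes, *Ocln*, *F11r*, *Tjp3* and *Cgn* were set against the pan-epithelial markers, with r = -0.27, 0.06, 0.27 and 0.20 (adjusted p = 0.628, 0.880, 0.628 and 0.731, exact permutation), and *Jam2* against the endothelial markers, with r = 0.06 (adjusted p = 0.880, exact permutation). None of these 5 relations passed the threshold. Without MUT-3 and WT-1, the libraries farthest from the pan-epithelial median, r was -0.73 for *Ocln*, -0.38 for *F11r*, 0.69 for *Tjp3* and 0.61 for *Cgn*. For *Jam2*, without MUT-1 and WT-1, it was -0.16.

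The wider junction was read from a list of 56 genes for polarity complexes, angulins, plaque proteins and regulators of claudins, 45 of which were tested. None had an adjusted p under 0.05. The median log2 fold change was 0.04 in MUT against HET, 0.04 in MUT against WT and -0.02 in HET against WT. In MUT against HET, 1 of 45 had an unadjusted p under 0.05, beside 6.31% of all loci. It was *St14*, matriptase, a protease that processes junction proteins, at 12.2, 8.66 and 7.19 FPKM in WT, 9.70, 9.41 and 8.29 in HET and 13.6, 12.4 and 9.88 in MUT (log2 fold change 0.35, SE 0.13, unadjusted p = 0.0215, adjusted p = 0.738). Without HET-2 it was 0.37 (SE 0.16, unadjusted p = 0.0351). *Pard3*, of the apical polarity complex, followed at 0.23 (SE 0.12, unadjusted p = 0.0767) and *Sympk*, symplekin, at 0.23 (SE 0.12, unadjusted p = 0.0836). In MUT against WT the 1 of 45, beside 0.644% of loci, was *Elf3*, an epithelial transcription factor, at 9.26, 10.6 and 7.35 FPKM in WT, 11.7, 14.7 and 9.08 in HET and 13.6, 10.6 and 11.6 in MUT (0.37, SE 0.15, unadjusted p = 0.0335, adjusted p = 0.9998). After it came *Igsf5* at -0.24 (SE 0.13, unadjusted p = 0.0879) and *St14* at 0.34 (SE 0.18, unadjusted p = 0.0925). In HET against WT 0 of 45 were under 0.05, beside 1.07% of loci, and the nearest were *Elf3* at 0.34 (SE 0.17, unadjusted p = 0.0796, and 0.18 at unadjusted p = 0.326 without HET-2), *Igsf5* at -0.21 (SE 0.12, unadjusted p = 0.102) and *Ovol1*, an epithelial repressor, at 0.20 (SE 0.13, unadjusted p = 0.167).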

How the data were processed

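Whole kidneys at E15.5 came from 3 crosses. Per the labels and the study's methods, the authors prepared stranded mRNA libraries, aligned reads with STAR to mm10, built gene models with cufflinks and cuffmerge, and obtained the deposited FPKM from Cuffdiff. Tool versions and the annotation are not given in the sources used here. Read depth is not given either. The spacing of low FPKM put WT-2 at about 0.576 and MUT-3 at about 0.609 of the depth of WT-1, and the other libraries between 0.908 and 1.28. Precision is therefore the spread of 3 kidneys per genotype.

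Loci averaging 5 FPKM or more in 1 of the genotypes were tested, as log2(FPKM + 1), by limma 3.58.1 under R 4.3.3 (eBayes with a trend), 2 genotypes at a time, two-sided, with Benjamini-Hochberg adjustment and a threshold of 0.05. Changes of low genes are understated on this scale. Relations to marker lists used exact permutation over 9 libraries (scipy 1.17.1). Gene models, GC content and exons came from GENCODE M21, and promoter windows from RefSeq. Table starts count from 0 and were raised by 1. The alternatives were other pseudocounts (0.1, 3), minimums (1, 10, none), rescaling by median ratios or quantiles, a joint fit of the 9 libraries, no trend, a replicate block, a GC spline with 5 degrees of freedom and each library left out. The fit was tested on simulated data.

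One member counted in the totals is not reported here. Every other member is given by its level, with each library's value at 5 FPKM or more or for a claudin with a known segment. Full statistics are given for unadjusted p under 0.05, and the wider list is represented by its 3 smallest p per comparison. Members and lists were chosen with earlier results of these data known.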

Additional observations from a re-analysis of the deposited data

How the results depend on the processing

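Under the settings that kept all libraries, no member had an adjusted p under 0.05 in any comparison. With a minimum of 1 FPKM, and with no minimum, 5 members had an unadjusted p under 0.05 in HET against WT, in place of 3, where the share of all loci was 1.5% and 2.58%, in place of 1.07%. The added members were *Cldn16* and *Cldn23*. At the minimum of 1 FPKM the second passes through its HET mean alone and cannot be read as a call, which leaves 4 there. With no minimum it passes no such filter, but it was picked out after its values were seen. In MUT against WT the count went from 2 to 3 at both of these minimums (1.18% and 2.72% of loci), again through *Cldn23*, and to 3 after quantile normalization (0.674% of loci), through *Cldn3*. Without *Cldn23*, which there passes through its MUT mean alone, the count was 2 at the minimum of 1 FPKM. *Cldn16* without HET-2 at that minimum was an alternative chosen after seeing the data. Near 0, signs turned: on the log2 scale *Marveld2* in MUT against HET was -0.019 after quantile normalization, *Cgn* in HET against WT was 0.027 after the same, *Cldn5* and *F11r* in MUT against WT were 0.0093 and 0.0069 after median-ratio rescaling, and *F11r* and *Jam3* in MUT against WT were 0.0053 and 0.021 after GC correction. The cause was not tested.

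With each library left out, 0 to 3 loci had an adjusted p under 0.05 in each comparison, and 0 members. Members with an unadjusted p under 0.05 numbered 0 to 1 in MUT against HET, 2 to 5 in MUT against WT and 1 to 5 in HET against WT, the extremes of the last without WT-3 and WT-2. The share of all loci under 0.05 ran from 2.75% to 18.1%, from 0.357% to 3.73% and from 0.982% to 6.17% in the same leave-outs, and was 11.2% without HET-3 in MUT against HET, 1.25% without MUT-2 in MUT against WT, and 2.54% and 3.89% without WT-3 and WT-2 in HET against WT. The median log2 fold change of the members ran from 0.023 to 0.13 in MUT against HET, from 0.018 to 0.093 in MUT against WT and from -0.034 to 0.035 in HET against WT, where it turned sign. Members whose sign turned in some leave-out ran as follows. In MUT against HET log2 fold changes ran from -0.042 to 0.26 for *Cldn8*, -0.026 to 0.035 for *F11r*, -0.076 to 0.26 for *Cldn11*, -0.056 to 0.19 for *Tjp1*, -0.14 to 0.0089 for *Jam3*, -0.27 to 0.16 for *Cldn3*, -0.10 to 0.10 for *Cldn12*, -0.23 to 0.20 for *Cldn2*, -0.23 to 0.36 for *Cldn10*, -0.045 to 0.35 for *Cldn19* and -0.024 to 0.053 for *Marveld2*. In MUT against WT log2 fold changes ran from -0.053 to 0.047 for *Cldn5*, -0.24 to 0.067 for *Cldn8*, -0.046 to 0.032 for *F11r*, -0.14 to 0.12 for *Tjp1*, -0.11 to 0.055 for *Jam3*, -0.058 to 0.16 for *Cldn9*, -0.21 to 0.046 for *Cldn12*, -0.10 to 0.10 for *Cgnl1*, -0.58 to 0.013 for *Cldn10* and -0.29 to 0.11 for *Cldn19*. In HET against WT log2 fold changes ran from -0.051 to 0.026 for *F11r*, -0.14 to 0.018 for *Tjp1*, -0.040 to 0.10 for *Jam3*, -0.20 to 0.015 for *Cldn12*, -0.15 to 0.0023 for *Ocln* and -0.063 to 0.098 for *Cgn*.

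The labels do not say whether a replicate number marks a cross, and the libraries were treated as not paired. The correlation of same-numbered deviations was -0.32, 0.0569 and -0.137 in MUT against HET, 0.557, -0.261 and -0.0354 in MUT against WT and -0.19, -0.0541 and 0.173 in HET against WT. Differently numbered libraries also reached 0.49 (MUT-3 with WT-2) and -0.554 (MUT-3 with WT-1). With 3 same-numbered pairs per comparison, these values cannot decide whether the numbers pair the libraries. With a replicate block, 0 loci had an adjusted p under 0.05 in each comparison, and 0, 2 and 4 members an unadjusted p under 0.05, beside 4.9%, 1.99% and 2.31% of all loci. The member added in HET against WT was *Cldn7* (0.26, unadjusted p = 0.0493). In the same limma fit with the block, *Cldn3* was 0.59 (SE 0.10, unadjusted p = 0.00033, adjusted p = 0.833), where its SE without the block was 0.20. Read depth is not given, so how much of the spread of low genes is counting error is unknown.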
